A study of Mus musculus with 20 samples.

Results

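The regions described here are distal H3K27ac regions found in the medial ganglionic eminence (MGE) of mouse embryos lacking Nkx2-1 and absent from wild type, at places where wild type had no H3K4me1 region either. They were selected on the peak lists themselves: a mutant H3K27ac region on chromosomes 1 to 19 was kept if it overlapped, by at least 1 base, no wild-type H3K27ac or H3K4me1 region, no H3K4me3 region of either genotype and no NKX2-1 or LHX6 peak. Of 66136 mutant H3K27ac regions, 9053 met the rule (13.7%), and they covered 3.65 Mb of the 62.5 Mb of mutant H3K27ac. These 9053 regions are called the members. Their absence from the wild-type lists is what chose them and is not a finding.

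The study profiled the MGE, the embryonic source of many cortical interneurons, at embryonic day 13.5, by chromatin immunoprecipitation and sequencing of histone marks. Wild-type and mutant MGE came from C57BL/6 embryos, the mutant being a conditional Nkx2-1 knockout. The Cre driver was not given in the sources used here. NKX2-1 and LHX6 were precipitated from wild-type CD-1 basal ganglia, so their peaks come from another strain and a wider dissection. A single deposited sample stands behind each antibody and genotype, made from merged alignments of unstated number, and is called a library here. Replicate error is therefore unknown, no test between genotypes was possible, and every difference is one between these samples. Exact 95% Clopper-Pearson intervals are given on shares of regions and cover counting error only; neighbouring regions are not independent, so the intervals are too narrow for any other use.

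H3K27ac is laid down at active promoters and enhancers, and H3K4me1 marks enhancers whether active or poised. At many enhancers H3K4me1 is present before H3K27ac, and such sites are called primed. The rule sets apart sites with mutant acetylation and no H3K4me1 region called in wild type. That line is drawn by a peak-calling threshold, so it does not show that the sites were unprimed. H3K27me3 is the mark of Polycomb repression. NKX2-1 is the homeodomain factor that specifies the MGE, and in its absence the tissue is known to take on features of the neighbouring lateral ganglionic eminence (LGE), the source of striatal projection neurons.

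Sequences of 5 members are shown because the results below turn on their loci: the 2 strongest members, the second strongest among those under wild-type H3K27me3, the second strongest with neither mutant H3K4me1 nor H3K27me3, and the strongest at Boc, the last being added after its values were seen. Each run is 300 bases of the plus strand of NCBIM37 (mm9) centred on the H3K27ac summit. Capitals mark matches on either strand of TGACAG (MEIS and other TALE factors), CAGCTG and likewise CATCTG (basic helix-loop-helix factors) and TCCCNNG (part of the EBF site), which were among the motifs whose share at member summits lay above the flanking DNA. These 4 were picked for capitals after their shares were seen. The Vstm2a run is chr11:16274792-16275091, in an intron. The Kcnma1 start run is chr14:24183571-24183870, at an annotated start inside the gene, and the Kcnma1 intron run is chr14:24193091-24193390. The Frmd6 run is chr12:71974505-71974804, and the Boc run is chr16:44539867-44540166, in an intron.
Vstm2a: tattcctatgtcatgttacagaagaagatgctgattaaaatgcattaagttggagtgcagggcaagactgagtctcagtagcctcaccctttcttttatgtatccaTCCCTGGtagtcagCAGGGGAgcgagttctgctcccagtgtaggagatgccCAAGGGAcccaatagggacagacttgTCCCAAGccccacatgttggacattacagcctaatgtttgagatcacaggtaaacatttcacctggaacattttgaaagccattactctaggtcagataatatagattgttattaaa
Kcnma1 start: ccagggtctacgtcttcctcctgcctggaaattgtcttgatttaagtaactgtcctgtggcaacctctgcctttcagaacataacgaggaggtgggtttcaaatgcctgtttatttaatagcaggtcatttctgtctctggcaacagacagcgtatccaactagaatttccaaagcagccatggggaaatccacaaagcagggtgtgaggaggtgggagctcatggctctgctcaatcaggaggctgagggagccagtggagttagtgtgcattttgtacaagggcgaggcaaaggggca
Kcnma1 intron: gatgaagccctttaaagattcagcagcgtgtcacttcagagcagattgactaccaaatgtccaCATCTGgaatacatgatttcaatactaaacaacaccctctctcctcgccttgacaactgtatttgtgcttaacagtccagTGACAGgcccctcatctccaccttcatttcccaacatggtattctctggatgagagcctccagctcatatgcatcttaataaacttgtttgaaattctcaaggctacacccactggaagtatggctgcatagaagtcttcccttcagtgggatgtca
Frmd6: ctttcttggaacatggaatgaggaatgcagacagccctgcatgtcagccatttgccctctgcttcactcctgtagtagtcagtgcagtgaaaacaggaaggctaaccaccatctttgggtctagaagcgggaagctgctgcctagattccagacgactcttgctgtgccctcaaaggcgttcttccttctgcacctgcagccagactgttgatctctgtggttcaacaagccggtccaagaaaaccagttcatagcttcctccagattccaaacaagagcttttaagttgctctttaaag
Boc: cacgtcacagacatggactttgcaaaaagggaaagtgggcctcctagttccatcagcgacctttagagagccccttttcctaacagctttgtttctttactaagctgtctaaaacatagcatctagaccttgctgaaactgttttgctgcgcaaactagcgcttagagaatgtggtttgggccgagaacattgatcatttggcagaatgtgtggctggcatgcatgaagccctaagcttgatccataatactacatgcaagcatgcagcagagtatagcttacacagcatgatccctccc
The Vstm2a run held 4 matches, all of TCCCNNG, and the Kcnma1 intron run held 1 of TGACAG and 1 of CATCTG. The other 3 runs held none, which says only that these letters are not in those windows.

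The wild-type and mutant H3K27ac libraries held 57.3 and 55.9 M tags (M, mega) after removal of duplicates, and the H3K4me1 libraries 59.7 and 69.0 M. The H3K4me1 library that the rule uses as wild type was therefore the shallower of its pair. The mutant lists were longer for every mark: 66136 against 61478 regions for H3K27ac, 106348 against 97936 for H3K4me1, 42536 against 33734 for H3K4me3 and 27229 against 20931 for H3K27me3. Whether depth or sensitivity sets part of the membership was not tested. The reverse set gives the size of the opposite change. Wild-type H3K27ac regions without mutant H3K27ac, mutant H3K4me1, H3K4me3 of either genotype or a factor peak numbered 5983, which is 9.73% of the wild-type list, and are called the mirror regions. There were 1.51 members for each mirror region, while the mutant list as a whole had 1.08 regions for each wild-type one. The other sets used for comparison are the 5226 gained distal regions that lay on wild-type H3K4me1 and the 13763 distal mutant regions that overlapped wild-type H3K27ac. Together with the members they make up the 28042 distal mutant regions, of which the members are 32.3%.

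Members were short and weak. Their median length was 344 bases (middle 50% from 284 to 456), against 372 for gained regions on wild-type H3K4me1, 535 for regions in both genotypes and 332 for the mirror regions. The shortest members were 250 bases, the length to which the authors extended each tag, and the longest reached 2798. A single summit was called in 90.4% of members and in 68.8% of regions in both genotypes. The median −log10 p of the strongest summit was 9.32 (5.31 to 50.9), on the authors' scale, at a median fold of 3.64 over background and a median pileup of 28.2 extended tags. Regions in both genotypes had a median −log10 p of 11.9 in the same list. In these lists the fold is the pileup plus 1 divided by a constant, which ranged only from 8.03 to 8.04 over all mutant H3K27ac regions, so pileup, fold and −log10 p carry 1 quantity, and input at the site itself does not enter it.

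Strong members existed but none reached the top of the list. A −log10 p of at least 20 was found in 383 members (4.23%), in 20.9% of regions in both genotypes and in 2.52% of mirror regions within their own list. A −log10 p of at least 30 was found in 42 members. The strongest of all, in the Vstm2a intron, ranked above 84.3% of mutant H3K27ac regions. At the lower end, 561 members had a −log10 p under 6.

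**Figure D1:**
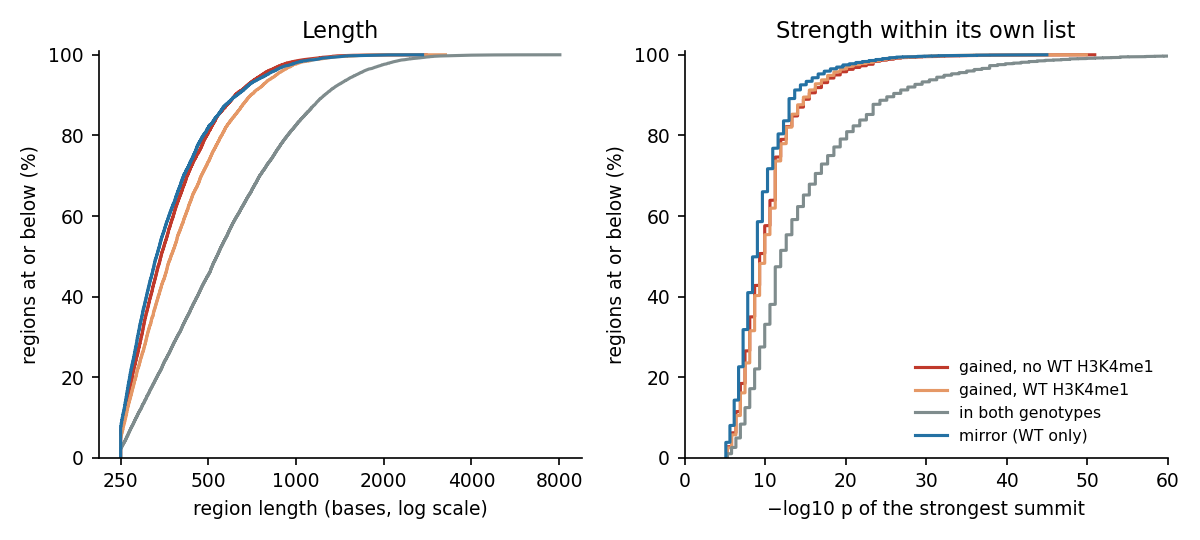
Cumulative share of regions (vertical axis, percent) by length in bases on a log axis (left) and by −log10 p of the strongest summit within its own list (right, cut at 60), for the members (gained, no WT H3K4me1), gained regions on wild-type H3K4me1, regions in both genotypes and mirror regions. The members run close to the mirror regions, with medians of 344 and 332 bases, and regions in both genotypes lie to the right of all of them.

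Many members sat beside chromatin that was already marked. The median distance to the nearest wild-type H3K27ac region was 3.24 kb (middle 50% from 0.726 to 16.0 kb), and to the nearest wild-type H3K4me1 region 2.21 kb. Within 1 kb of either lay 3773 members (41.7%), leaving 5280 members farther away. Just inside the rule, 138 members lay within 0.1 kb of wild-type H3K27ac and 260 within 0.1 kb of wild-type H3K4me1. Just outside it, 273 distal mutant regions overlapped wild-type H3K27ac by under 100 bases, and 244 gained regions overlapped wild-type H3K4me1 by as little. A minority were remote: 962 members (10.6%) lay over 50 kb from any wild-type H3K27ac region.

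In the mutant, H3K4me1 was called at fewer than 1 in 2 members. It overlapped 3591 of 9053 (39.7%, interval 38.7 to 40.7), against 68.7% of all distal mutant H3K27ac regions, 93.3% of gained regions on wild-type H3K4me1 and 78.4% of regions in both genotypes. The rule bars wild-type H3K4me1, which lowers this share, so the fair counterpart is the mirror set, chosen with the same bar on the other genotype: 33.9% of mirror regions overlapped H3K4me1 of their own genotype, wild type (32.7 to 35.1). The member share lay above that of the mirror regions by more than the counting error, in libraries of 69.0 and 59.7 M tags. Where mutant H3K4me1 was present it usually covered the member, with a median of 84.1% of its bases, at a median H3K4me1 fold of 3.83, below the 4.78 at regions in both genotypes.

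H3K4me1 was found more often at stronger members. The share was 29.4% (27.2 to 31.6) at members with a −log10 p of 5.31 to 6.93, then 34.7%, 40.2% and, at members with 11.9 or more, 51.2% (49.1 to 53.2). At the 383 members with a −log10 p of at least 20 it was 59.8%, while regions in both genotypes of that strength had it at 94.1%. Distance from wild-type acetylation went with it as well. Mutant H3K4me1 lay at 29.6% of members within 1 kb of wild-type H3K27ac, at 39.2% of those 1 to 10 kb away, at 50.9% of those 10 to 50 kb away and at 47.4% beyond. The median −log10 p rose over the same distances only from 9.32 to 10.6. By distance to wild-type H3K4me1 in place of H3K27ac there was no such order: the shares were 40.9%, 36.2%, 44.5% and 45.5% in the same bins.

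**Figure D2:**
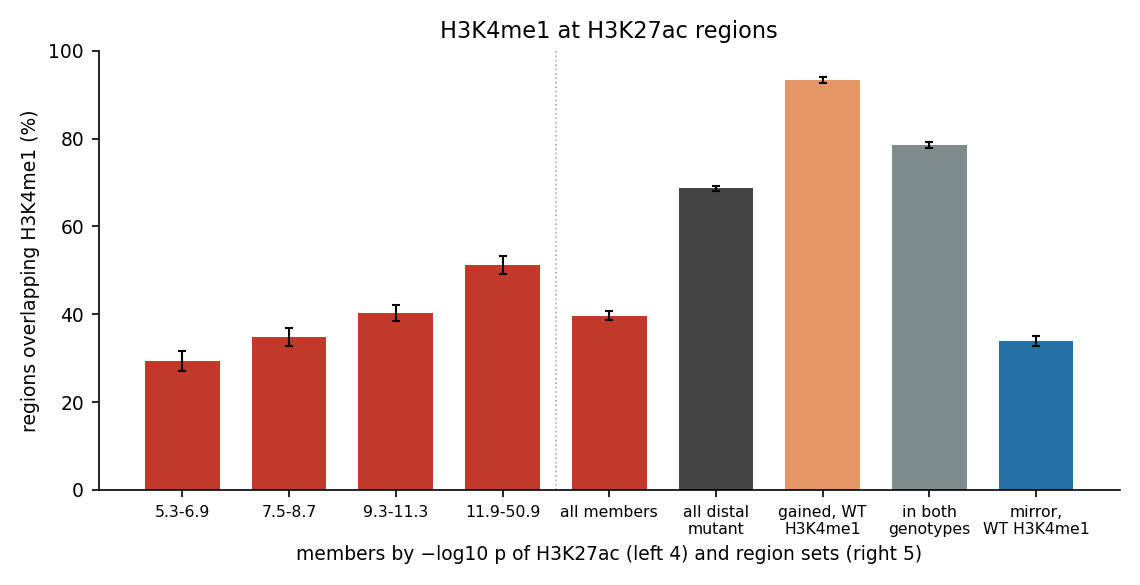
Percent of H3K27ac regions that overlap H3K4me1, with exact 95% intervals: members in 4 bands of −log10 p (left of the dotted line), then all members and the comparison sets, all with mutant H3K4me1 except the mirror regions, which are shown with wild-type H3K4me1. The share goes from 29.4% in the weakest band to 51.2% in the strongest, and stays below the 78.4% of regions in both genotypes.

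H3K27me3 was rare at members. Wild-type H3K27me3 overlapped 130 (1.44%, 1.20 to 1.70), against 1.17% of all distal mutant regions, and mutant H3K27me3 overlapped 129 (1.42%), against 1.72%. Of the 176 members with H3K27me3 in either genotype, 83 had it in both, 47 in wild type only and 46 in the mutant only. Among gained regions on wild-type H3K4me1 27 had it in wild type only and 59 in the mutant only. Among mirror regions 9 had H3K27me3 in wild type only and 85 in the mutant only, and among regions in both genotypes 25 and 149, in a mutant list longer than the wild-type one. Loss of H3K27me3 thus made up 0.519% of members (0.382 to 0.690), a like 0.517% of gained regions on wild-type H3K4me1 (0.341 to 0.751), and 0.182% of regions in both genotypes (0.118 to 0.268). Over all distal mutant regions it made up 0.353% (0.287 to 0.430), an interval that overlaps that of the members. Over all mutant H3K27ac regions it made up 0.585%. At the 47 members that lost H3K27me3, mutant H3K4me1 was present at 21 (44.7%, 30.2 to 59.9), within counting error of the 39.6% at members without H3K27me3. The commonest state was H3K27ac with no other called mark: 5359 members (59.2%) had neither mutant H3K4me1 nor H3K27me3 in either genotype. The shares were 30.7% of all distal mutant regions, 21.2% of regions in both genotypes and 6.60% of gained regions on wild-type H3K4me1. The rule bars H3K4me3 and wild-type H3K4me1 at members, so this state is in part fixed by selection.

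The members lay far from annotated starts of genes, though many lay within genes. Between genes were 53.0% (51.9 to 54.0), in introns 42.4%, in exons 1.92% and around the transcription start sites (TSSs, to 2.5 kb) of protein-coding genes 2.76%. The median distance to the nearest TSS was 70.7 kb, against 53.6 kb for gained regions on wild-type H3K4me1, 49.0 kb for regions in both genotypes and 49.2 kb for the mirror regions. Over 100 kb from any TSS lay 40.4% of members (39.4 to 41.4), and 29.2% of mirror regions (28.1 to 30.4). Of all sets compared, the members were the most distant. Per megabase of sequenced chromosome, members ranged from 2.73 on chromosome 7 to 5.53 on chromosome 12. Chromosome 16 was the only one of 19 with more members than regions in both genotypes, 391 and 386.

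The strongest members were spread over the genome. The first, chr11:16274762-16275513, lay in an intron of Vstm2a, 117 kb from its TSS, at −log10 p 50.9 and fold 9.61, with neither mutant H3K4me1 nor H3K27me3. The second, chr14:24181990-24183982, lay 0.131 kb from an annotated start inside Kcnma1, the pore-forming subunit of the large-conductance calcium-activated potassium channel, at −log10 p 47.8. It carried mutant H3K4me1 over 85.1% of its length, and wild-type H3K27me3 over 14.6% of it was no longer called in the mutant. Next was chr14:98934426-98934924, between genes and 366 kb from Dach1, which encodes a nuclear factor of the Dachshund family. It was followed by members in Col4a4, a collagen IV chain, at −log10 p 42.8, and near Frmd6, a FERM-domain protein, at 41.8. The following 7 had −log10 p values from 37.9 to 40.8 and were nearest to Sel1l, Ncoa7, Dscam, Zbtb20, 2210408I21Rik, Pvrl3 and Rph3a. Of the 12, those at Vstm2a, Frmd6 and Zbtb20 had no mutant H3K4me1. Ncoa7, Dscam and Zbtb20 were the ones within 0.5 kb of wild-type H3K27ac, at 0.477, 0.419 and 0.362 kb.

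The longest members were not the strongest. The longest, 2798 bases at chr12:108029618-108032415, held 6 summits and lay 696 kb from the nearest TSS, that of 3110018I06Rik, at −log10 p 21.8. Next were 2598 bases in Ano1, a calcium-activated chloride channel, and 2377 bases at chr12:107688275-107690651, the latter among the members downstream of Vrk1. The members at Kcnma1 (1993 bases), near Rph3a (1946) and in Rbfox1, a splicing factor (1938), followed.

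Genes were linked to members by distance, which does not show that a region acts on a gene. At least 1 member lay within 50 kb of a TSS of 3214 of 21217 protein-coding genes (15.1%), and a mirror region near 14.3%. At least 3 members lay near 608 genes (2.87%). The median number of members per gene was 0 over all genes and, of 17 lists of genes, in all but the striatal projection neuron effectors, where it was 1. Of 316 entries in the lists, 309 matched the annotation.

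Transcription factors of the LGE and striatum had members nearby more often than mirror regions. Of 23 such genes 9 had a member within 50 kb (39.1%) and 1 a mirror region. Nearness to these genes was not particular to members. A gained region on wild-type H3K4me1 lay within 50 kb of 14 of the 23 (60.9%, against 12.6% of all genes). A region in both genotypes lay near 8 (34.8%). Among the 9 genes with a member, Meis2, a TALE homeodomain factor of the LGE, had 14 members. Tshz2, a teashirt zinc finger factor, had 7, Foxp4, a forkhead factor, 5, Zfp503, a zinc finger factor of the developing striatum, 4, and Isl1, a LIM homeodomain factor of striatonigral neurons, 3. None of these 5 had a mirror region within 50 kb. Leaving out members within 1 kb of any barred list brought Meis2 to 7 and Foxp4, Zfp503 and Isl1 to 2 each, and a −log10 p of at least 8 for mutant H3K27ac brought Tshz2 to 2. Pbx3, Zfhx3 and Bcl11b had 1 member each, Bcl11b also 1 mirror region, and 14 genes of the list had none, Foxp1, Foxp2 and Ebf1 among them. In the wider window of 500 kb, chosen after the first counts were seen, the list had 297 members and 53 mirror regions, 5.60 members for each, against 1.48 over all genes. For single genes, Meis2 had 36 members and 0 mirror regions, Zfhx3 29 and 2, Pbx3 27 and 3, Foxp4 26 and 0, Zfp503 20 and 2, Isl1 19 and 0, and Ebf1 14 and 0. Bcl11b, which encodes CTIP2 of striatal and cortical projection neurons, had 17 and 18.

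Transcription factors of the MGE had mirror regions nearby more often than members. Of 27 genes 6 had a member within 50 kb and 11 a mirror region, and within 500 kb the list had 82 members and 184 mirror regions. The medians per gene in that wider window were nevertheless 3 and 3, with more mirror regions at 15 genes and more members at 11, among them Nkx2-1 (11 members and 2 mirror regions), Dlx1 (16 and 8), Dlx2 (18 and 7) and Dlx5 (10 and 3). Within 50 kb, Lhx6, a LIM homeodomain factor of MGE-derived interneurons, had 0 members and 6 mirror regions, Maf 0 and 4, and Cux2 2 and 18. Nkx2-1 itself had 1 member, under wild-type H3K27me3, and 0 mirror regions. Dlx1 and Dlx2, homeodomain factors shared by both eminences, were the list's genes with at least 3 members, 6 and 5, and the 5 at Dlx2 were among the 6 at Dlx1. All 6 lay upstream of Dlx1 without mutant H3K4me1. Without members within 1 kb of a barred list, Dlx1 had 3 and Dlx2 had 2. The order within 50 kb was lost when regions within 1 kb of the barred lists were left out (4 genes with a member, 3 with a mirror region), and the counts were equal, 10 and 10, when every list was held to a −log10 p of at least 8.

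In the signalling and neuronal lists more genes had a member nearby than a mirror region. Such nearness was not particular to members. Gained regions on wild-type H3K4me1 lay within 50 kb of 3 SHH, 6 WNT and BMP, 7 striatal effector, 13 axon guidance and 7 Notch and progenitor genes. Regions in both genotypes lay near 5, 12, 3, 12 and 13 genes in the same order. Of 12 SHH pathway genes 4 had a member within 50 kb and 0 a mirror region: Boc, a SHH co-receptor, had 12 members, Gli2 and Gli3, the transcriptional effectors, 6 and 2, and Cdon, another co-receptor, 1. Shh, Ptch1 and Gli1 had none. Within 500 kb the list had 54 members and 41 mirror regions, 1.32 members for each, against 1.48 over all genes. In that window more mirror regions lay at 7 of the 12 genes and more members at 3, so the difference was local to a few genes. Of 25 WNT and BMP pathway genes 10 had a member and 4 a mirror region, with 6 members at Id4, an inhibitor of basic helix-loop-helix factors, and 3 each at Sfrp1, a secreted WNT antagonist, and Wnt7b, a WNT ligand. Of 17 striatal projection neuron effectors 9 had a member and 4 a mirror region. Epha4, an ephrin receptor, had 5 of each, and Gad2, a GABA-synthesising enzyme, 3 and 0. Of 32 axon guidance genes the counts were 15 and 8, with 4 members at Plxnc1, a semaphorin receptor, and 3 each at Cxcr4, Cxcr7, Sema6a and Nrg1. Of 22 Notch pathway and progenitor genes they were 8 and 4, with 3 members at the receptor gene Notch1. Several of these small counts rested on members near barred regions or on weak ones. Without members within 1 kb of any barred list, 0 were left at Sema6a and Wnt7b, and 1 each at Cxcr7, Nrg1 and Notch1. With a −log10 p of at least 8 for mutant H3K27ac, 0 were left at Sema6a, 1 each at Cxcr4 and Gad2, 2 at Plxnc1 and 3 at Gli2.

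Retinoic acid genes did not differ as a list, with 5 of 16 near a member and 5 near a mirror region. Stra6, the retinol uptake receptor, had 20 members and 6 mirror regions, but 4 members once those within 1 kb of a barred list were left out, and Crabp1, a retinoic acid binding protein, 4 and 0, while Rxra, a retinoid receptor, had 0 and 6. CGE and COUP-TF genes had 4 and 6 of 15, and pallial transcription factors 6 and 5 of 19, with 33 members at Zbtb20, whose TSSs span 713 kb, and 16 without those within 1 kb of a barred list. Diencephalic and hypothalamic factors had 2 and 0 of 19, Hox genes 3 and 0 of 22, and housekeeping genes 1 and 2 of 14.

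Markers of other cell types gave these counts of genes near a member and near a mirror region. Oligodendrocyte lineage genes had 2 and 6 of 8, with 9 members at Sox8. Genes of endothelium, mural cells and blood had 5 and 2 of 15, with 3 members each at Pecam1 and Pdgfrb. Microglia genes had 2 and 1 of 8, and genes of meninges and mesenchyme 2 and 3 of 14, with 5 members at Prrx2 and 4 at Col1a2. Without members within 1 kb of a barred list, Sox8 had 6, Pecam1 and Prrx2 1 each and Pdgfrb 0, and the limit on −log10 p left 2 at Col1a2. The part that other cells in the dissection have in the members was not tested.

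**Figure D3:**
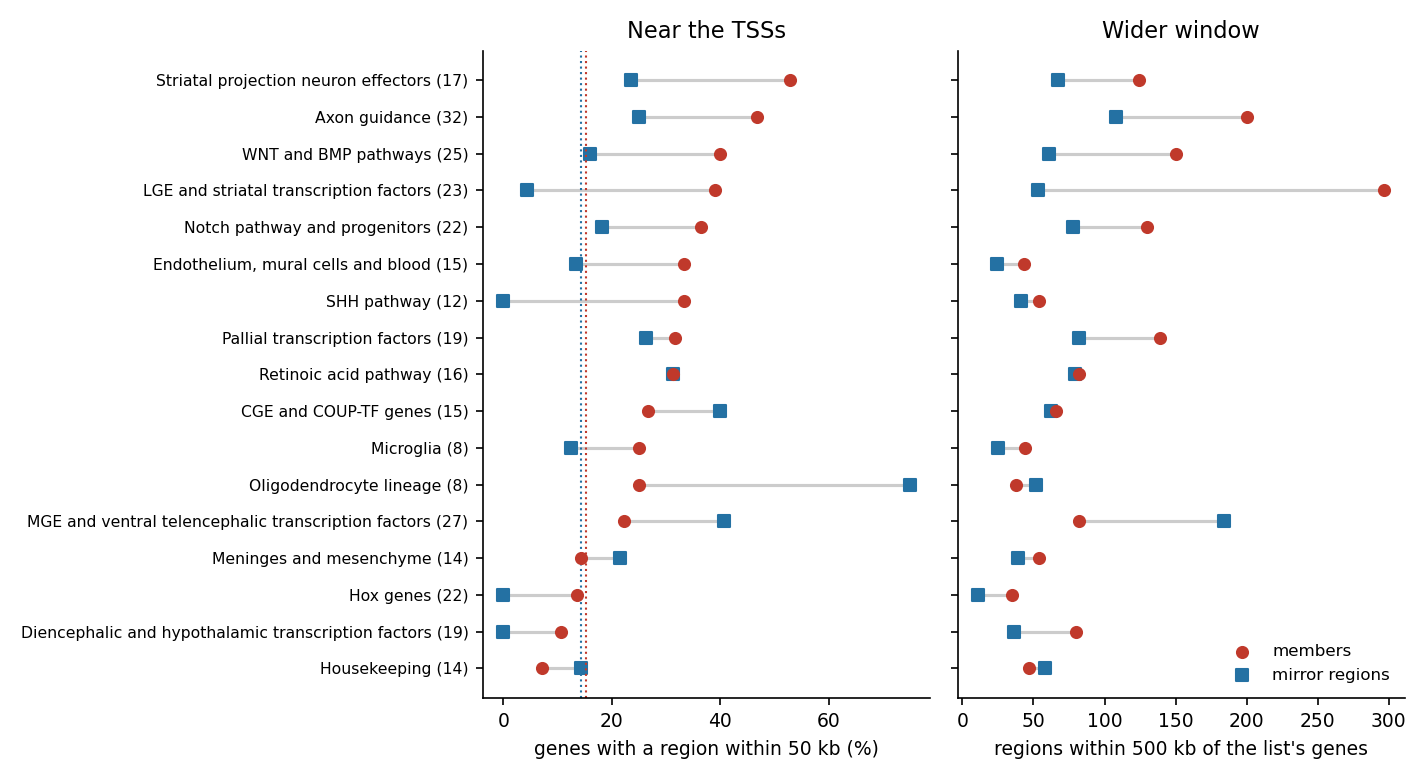
Left, percent of each list's genes (number in brackets) with a member (circle) or a mirror region (square) within 50 kb of a TSS, with dotted lines at the shares over all protein-coding genes, 15.1% and 14.3%. Right, number of members and mirror regions within 500 kb, where the LGE and striatal factors stand at 297 and 53 and the MGE factors at 82 and 184.

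Most promoters of genes with several members had H3K27ac in wild type already, and a small share had it in the mutant only. Within 1 kb of the TSS, H3K27ac was found in the mutant only at 36 of the 608 genes with at least 3 members (5.92%, 4.18 to 8.10), at 2.36% of all genes and at 3 of the 454 genes with at least 3 mirror regions (0.661%). H3K27ac in wild type only was found at 1 of the 608, at 11 of the 454 and at 0.457% of all genes. Wild-type H3K27ac was present at 73.4% of the 608, at 56.4% of all genes and at 82.2% of the 454, so it was not particular to genes with members. Members and mirror regions within 1 kb of a TSS can themselves be the regions counted here, since the rule used the same H3K27ac lists. The direction of these promoter differences is thus in part fixed by the rule.

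At Boc the members were spread along the gene. All 12 lay in its introns, from 4.09 to 49.1 kb downstream of the first TSS, on 6.64 kb in all, and within 50 kb of the TSSs there was no gained region on wild-type H3K4me1, no distal region in both genotypes and no mirror region. Their −log10 p ran from 5.31 to 25.1 (median 12.6), and the 9 nearest the start had mutant H3K4me1 while the 3 farthest did not. In the 100 kb around the TSSs, mutant and wild-type H3K27ac covered 28.7 and 9.68 kb, H3K4me1 29.3 and 14.1 kb, and H3K27me3 3.52 and 23.2 kb. So the members stood among differences in H3K4me1 and H3K27me3 coverage across the gene. The 12 members themselves overlapped no H3K27me3 region of either genotype. Boc and the loci described next were named because members lay there, and members by rule lie outside wild-type H3K27ac and H3K4me1. The direction of the H3K27ac and H3K4me1 differences at all these loci is thus in part fixed by the rule.

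Gli2 had differences of coverage in the same directions over a longer stretch. Its 6 members, all in introns, had −log10 p values of 5.31 to 11.3, weaker than at Boc, and 5 had mutant H3K4me1. Within 50 kb of its TSSs H3K27ac covered 20.5 kb in the mutant and 9.49 kb in wild type, and H3K27me3 3.96 and 25.3 kb. Of the 6 members, 1 overlapped wild-type H3K27me3. At any distance, Gli2 was the nearest gene of 5 members that lay on wild-type H3K27me3, and at all 5 the mutant had none.

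At Meis2, counting from 50 kb before its first TSS to 50 kb after its last, 16 members lay with −log10 p of 5.83 to 14.8, of which 11 had mutant H3K4me1. There H3K27ac covered 66.5 kb in the mutant and 41.2 kb in wild type, so members added to acetylation that was already broad. Isl1, Zfp503 and Foxp4 started lower. From wild type to mutant, H3K27ac around them went from 5.79 to 16.7 kb, from 7.90 to 22.1 kb and from 5.88 to 16.6 kb. H3K27me3 went from 22.1 to 22.4, from 31.4 to 24.8 and from 22.0 to 10.9 kb. Members covered only 0.82, 1.597 and 2.148 kb there, so most of the added acetylation lay outside members. Foxp1 and Ebf1, with 0 members in the same kind of window, went from 7.155 to 18.345 kb and from 0.251 to 7.339 kb of H3K27ac. At Isl1 the gain in acetylation therefore stood beside H3K27me3 of the same length.

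Kcnma1 held the largest group of members under wild-type H3K27me3. From 401 to 441 kb downstream of its first TSS, around a start inside the gene, lay 20 members, 11 of them on wild-type H3K27me3, which the mutant had lost at 6 and kept at 5. Mutant H3K4me1 was present at 6 of the 20. Over the window of 539 kb around its TSSs, H3K27ac covered 20.2 kb in the mutant and 1.92 kb in wild type, and H3K27me3 9.37 and 26.1 kb. After Kcnma1, the genes nearest to most members on wild-type H3K27me3 were 1700112E06Rik, which neighbours Zfp503, and Nr2f2, which encodes COUP-TFII of the caudal ganglionic eminence, with 7 each, of which 0 and 2 had lost it. Nkx2-1 was nearest to 3, all with H3K27me3 kept.

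**Figure D4:**
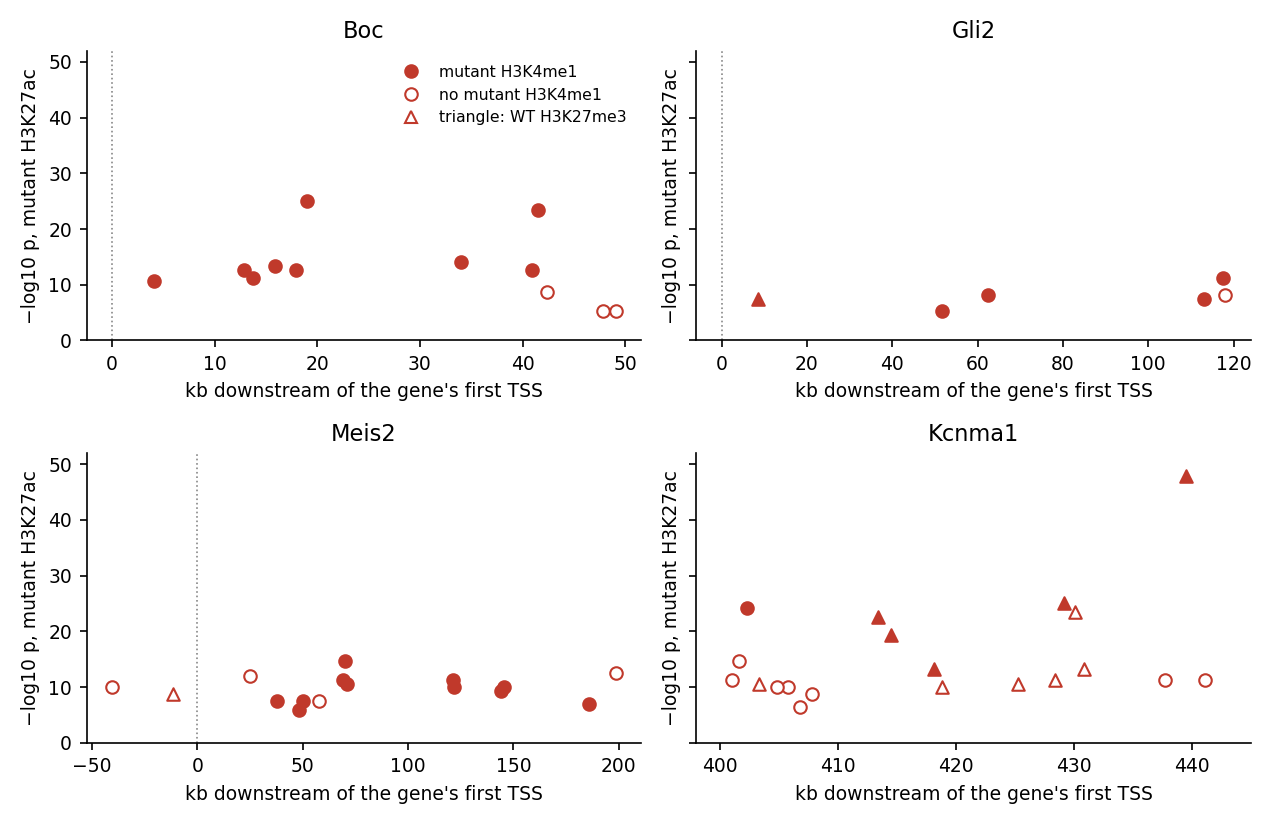
Members at Boc, Gli2, Meis2 and Kcnma1, plotted by distance of their centre downstream of the gene's first TSS (horizontal axis, kb, with its own scale per gene) and −log10 p of mutant H3K27ac (vertical axis). Filled points had mutant H3K4me1, and triangles lay on wild-type H3K27me3: 1 at Gli2, 1 at Meis2 and 11 of 20 at Kcnma1.

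Members came in groups. Another member lay within 50 kb of 73.0% of them (72.1 to 73.9), between the 53.1% of gained regions on wild-type H3K4me1 and the 81.3% of the more numerous regions in both genotypes. Of the less numerous mirror regions 69.9% had such a neighbour. This share grows with the number of regions in a set. Stretches of at least 5 members, each at most 50 kb from the next, numbered 363 and held 35.8% of members, against 33.6% of mirror regions in theirs, and 23 stretches held at least 20. Members were spread over many nearest genes: 3012 genes were the nearest TSS of a member, 1465 of them of 1 member only. The 15 leading genes had 6.47% of all members, led by Vrk1 with 84, Dpyd with 46, and Kcnma1 and Cadm1 with 42. Leaving out members within 1 kb of any barred list brought Vrk1 to 45, Dpyd to 33, Kcnma1 to 35 and Cadm1 to 18. Vrk1 encodes a nuclear kinase, Dpyd an enzyme of pyrimidine breakdown and Cadm1 a cell adhesion molecule. Among the others, Cryba4 had 41 members, Zbtb20 40, Myo3a and Zmiz1 37, Gm6133 34, Clint1 32, Psmd7, C130026L21Rik and Celf2 31, and A730018C14Rik 29. For Vrk1 the median distance was 361 kb and for Clint1 374 kb, so the nearest gene was often remote. Dpyd held 44 of its 46 within the gene.

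The 12 stretches with most members, named after their values were seen, differed in what wild type had there. In most of them members were added to acetylation already present in wild type. The stretch over Vrk1, chr12:107209436-107780140, held 75 members, 46 regions in both genotypes and 4 mirror regions, and H3K27ac there covered 130 kb in the mutant and 66.6 kb in wild type. The stretch over Mn1, a transcriptional coregulator, held 74 members, 129 regions in both genotypes and 25 mirror regions, with 338 and 279 kb of H3K27ac. Only 4 of those 74 members had mutant H3K4me1. Around Id4, 33 members lay in 256 kb with 7 regions in both genotypes, 0 mirror regions and 58.8 against 27.3 kb.

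The stretches named next had the highest ratios of mutant to wild-type H3K27ac of the 12, at 15.6, 3.93 and 3.11. Wild type had little between Ebf1 and Clint1 and within Dpyd. In chr11:45153291-45362275, with no gene inside, between Ebf1, a striatal transcription factor 722 kb away, and Clint1, 30 members stood with 1 region in both genotypes, and H3K27ac covered 21.2 kb in the mutant and 1.36 kb in wild type. Mutant H3K4me1 was present at 5 of these 30. Within Dpyd, 27 members stood with 20.7 against 5.25 kb of H3K27ac. In chr8:110337503-110535434, between Psmd7 and Zfhx3, a zinc finger homeodomain factor 703 kb away, 26 members stood with 49.7 against 16.0 kb. Wild type was thus acetylated there already, and the stretch held 6 regions in both genotypes. Mutant H3K4me1 was present at 12 of these 26 members. The stretches between Ebf1 and Clint1 and between Psmd7 and Zfhx3 held no mirror region and no factor peak.

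**Figure D5:**
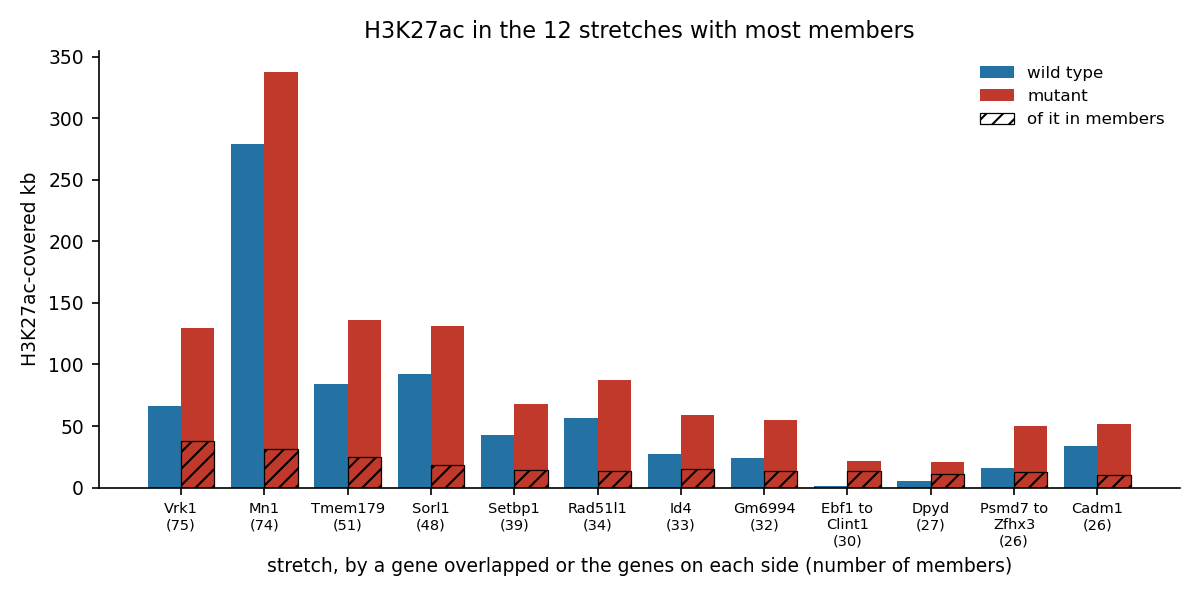
H3K27ac-covered length (kb) in wild type and mutant for the 12 stretches with most members, in order of member number, with the part made up by members hatched. Each stretch had more in the mutant, from 1.21 times at Mn1 to 15.6 times between Ebf1 and Clint1; members were chosen for absence in wild type, so this direction is in part fixed by the rule.

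The DNA at member summits differed from the DNA 1000 bases to each side. Windows of 200 bases at the summit had a median GC content of 48% and the flanks 44.5%; the mirror regions had 50% and 46.5%. Of 16 motifs searched on both strands, TGACAG, the core bound by MEIS and other TALE factors, was present in 18.7% of member windows (17.9 to 19.5) and 14.2% of flanks. In the mirror regions it was present in 16.4% (15.5 to 17.4) and 14.5% of flanks, so the excess at summits was 4.47 points for members and 1.94 for mirror regions. In regions in both genotypes it was 3.26 points. In gained regions on wild-type H3K4me1 it was 4.06 points, at a share of 18.4% (17.3 to 19.5), so this excess was not particular to members. Of the 16 motifs, TGACAG and GATTA had a share in members whose interval lay above that of the mirror regions, and GATTA was lower at member summits (18.5%) than beside them (23.4%).

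For 4 of the 16 motifs the member interval lay below that of the mirror regions, and for 10 it lay neither above nor below. The 4 were CAGCTG and the motifs given here for nuclear factor I, GLI-type zinc fingers and part of the EBF site. CAGCTG, bound by basic helix-loop-helix factors, was present in 13.2% of members, 15.5% of mirror regions, 17.3% of regions in both genotypes and 9.31% of member flanks. CATCTG was present in 17.2 to 18.8% of members (interval) and 19.6% of mirror regions, and TCCCNNG, part of the EBF site, in 40.3% of members, 33.1% of their flanks and 44.7% of mirror regions. TAATTA, the core of many homeodomain factors, was less frequent at summits than beside them in every set: 3.02% against 6.89% for members and 2.34% against 5.86% for mirror regions. Of the remaining motifs, TTGGCNN of nuclear factor I was present in 29.0 to 30.9% of members (interval), 27.3 to 28.6% of their flanks and 33.1% of mirror regions, and CACCCA of GLI-type zinc fingers in 15.2%, 13.5% and 17.2%. Nuclear receptors were represented by AGGTCA (12.5% of members, 11.9% of flanks), AP-1 by TGANTCA (6.43% and 6.17%), SOX factors by ACAATGG (3.62% and 3.18%) and POU factors by ATGCAAA (3.51% and 4.46%). TCF and LEF factors were represented by CTTTGAT (3.41% and 3.20%), forkhead factors by TGTTTAC (2.66% and 3.05%), NK2 factors by CACTTGA (2.52% and 3.01%) and SP and KLF factors by GGGCGG (2.32% and 2.30%). None of the 16 contains another. A match is a description of the letters, and its part in any binding was not tested.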

How the data were processed

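The members and the gene lists were chosen with earlier results of these data known. The submitters' processing notes name BWA 0.6.2, MACS2 2.1.0, bcl2fastq 1.8.4 and CASAVA 1.8.2, and the build mm9. Per the file headers, MACS 2.1.0.20140616 compared merged alignments with input at a p cutoff of 1e-05. It kept 1 tag per position, extended tags to 250 bases, split summits, and used neither a fragment model nor a local background. How many alignments were merged was not stated. The authors deposited the pileup (a signal, in extended tags), the −log10 p and the fold, a ratio to background. A q-value column is filled although, per the file headers, none was calculated, and it was not used. Input and IgG libraries were not analysed here.

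Rows of the same chromosome, start and end were joined as 1 region, which kept its strongest summit's values. Overlaps (at least 1 base), distances, covered lengths and motif matches were computed in Python (3.11.15) with scipy 1.17.1, pandas 2.3.3 and numpy 2.4.6, and figures were drawn with matplotlib 3.10.9. The interval functions were tested on 400 simulated regions with 0 mismatches. The gene annotation was GENCODE vM1, on the build of the files (NCBIM37), and coordinates count from 1. Depth ranged from 26.8 to 89.1 M tags, and its part in the calls was not tested. A region's place is that of its centre. Values of single regions were compared only within a list.

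Named regions followed a rule: the 12 members with the highest −log10 p, the 6 longest, and the 8 highest both on wild-type H3K27me3 and with neither mark. Named genes were the 15 nearest to most members and those of each list with at least 3 members within 50 kb; some of these genes are not reported here. Other genes, the stretches, the window of 500 kb and the loci drawn were chosen after their values were seen. Results kept their settings except for 1 change at a time, given in the closing section.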

Additional observations from a re-analysis of the deposited data

How the results depend on the processing

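No paired analysis was possible because each antibody and genotype has 1 deposited sample. With removal only by regions covering at least 50%, members numbered 11355, within 1.5 times of 9053; their median length was 367 bases, mutant H3K4me1 lay at 47.5%, 76.6% had a neighbour, and 2 LGE and 1 SHH genes had a mirror region. When any region within 1 kb removed a member, 5122 were left: H3K4me1 at 41.6%, H3K27me3 at 0.859% (wild type) and 0.742% (mutant), 1.68% near a TSS, 62.2% with a neighbour, a median of 8.88 kb to wild-type H3K27ac, 1967 genes within 50 kb, and 3 MGE and 0 LGE genes with a mirror region. The added alternative of members over 1 kb from wild-type H3K27ac and H3K4me1 left 5280, with 41.7%, 0.947%, 0.852%, 1.69%, 62.6%, 9.01 kb, 2025 genes, and 4 and 0 genes in the same order; MGE genes with a member then also numbered 4. The LGE and SHH lists kept more genes near members than near mirror regions under each alternative run.

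A −log10 p of at least 8 for mutant H3K27ac gave 362 bases, a median −log10 p of 10.6, H3K4me1 at 43.3% and 66.9% with a neighbour. The same limit on every list gave 375 bases, 10.6, H3K27me3 at 1.08% and 1.14%, 70.8% with a neighbour, 10 MGE genes with a member and 1 SHH gene with a mirror region. As many mutant as wild-type H3K27ac regions gave 357 bases, 10.6, 42.0% and 68.8%. Within 10 kb of a TSS, 822 genes had a member, of them 0 MGE and 2 SHH genes, and 2 MGE and 0 LGE genes had a mirror region. Within 100 kb, 5612 genes and 7 SHH genes had a member, and 19 MGE, 4 LGE and 2 SHH genes a mirror region. With the TSSs of all genes 5.83% of members lay near one, and in windows of 100 bases TAATTA was present at 1.44%. The cause of these differences was not tested. Of 615 values for single motifs and genes, 467 stayed within the interval or 1.5 times and 148 moved, without a change of direction being defined. All 28 named regions stayed members under 7 of the 9 alternatives that change the members, 10 when any region within 1 kb removed a member, and 12 in the added alternative. A region missing from the wild-type list may lie just under the threshold at this depth.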
